A study of Homo sapiens with 30 samples.

Results

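The knockdown of NELF-A in T47D cells was compared with a control siRNA. The comparison took the 3 gene-level arrays whose siRNA label is siNELF-A and the 3 whose label is siControl, which is 6 of the 15 gene-level arrays of the series, and it covered all 22011 transcript clusters of the deposited table. A transcript cluster is the array's unit for a gene. The same 6 hybridisations were also deposited probe set by probe set, 287329 in all, and these exon-level values were used for single genes and for exon usage.

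T47D is an established human cell line from a luminal breast tumour that carries oestrogen and progesterone receptors. The series knocked down each of the 4 subunits NELF-A, NELF-B, NELF-C and NELF-E, and asked which genes and exons change with each of them and in common. The control siRNA was directed against luciferase, a gene that human cells lack. All groups shared the line and the treatment: lipid transfection of the duplex at 10 nM, a change of medium at 48 h and harvest after 48 h more. The labels name 1 siRNA treatment per subunit, so that effects of the duplex beyond its target cannot be told apart here from those of losing NELF-A. The labels also name no group without siRNA, so effects of the control duplex cannot be told apart either. A gene that fell or rose below is thus lower or higher than in the control siRNA arrays. The 3 arrays of a group are technical repeats according to the series text, so p-values measure the spread between repeats and not between separate cultures.

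Negative elongation factor binds RNA polymerase II together with DSIF, the complex of SPT4 and SPT5, soon after the polymerase leaves a promoter, and holds it in a paused state. The kinase P-TEFb phosphorylates both complexes and the polymerase, which lets elongation go on. NELF-A is the subunit that contacts the polymerase and carries a flexible tail, NELF-B and NELF-C link the subunits, and NELF-E binds the nascent RNA. Depletion of NELF from other cells is known to lower some transcripts and raise others.

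All values are on the log2 scale of the robust multi-array average (RMA), so a difference of 1 is a doubling, and levels are not compared between genes. A cluster was called when limma's moderated test gave a p below 0.05 after Benjamini-Hochberg adjustment across the whole table and its change reached 1.5-fold. Correlations between arrays were 0.987 to 0.990 among controls and 0.984 to 0.985 among siNELF-A arrays. The interquartile range of an array's values was 4.04, 3.95 and 4.12 in the controls and 3.91, 3.91 and 3.69 in siNELF-A replicates 1, 2 and 3. Every siNELF-A array thus had a smaller range than every control, replicates 1 and 2 only slightly. Counts after quantile normalization, which gives every array the same spread, are given below. The cause of the difference in range was not tested.

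NELFA itself has no cluster that carries its symbol alone, because the cluster at its locus also carries NSD2 and MIR943. Its level was therefore taken as the median of its 15 exon-level probe sets. That median was 6.25, 6.14 and 6.34 in the controls and 5.39, 5.58 and 5.92 in siNELF-A. The groups did not overlap, and the difference was -0.61 (SE 0.192, adjusted p = 0.069), which did not pass the test. Of the 15 probe sets, 9 had all siNELF-A arrays below all control arrays and 2 had all above, against 18.0% and 7.73% of all probe sets on the array. Probe sets 2757556, 2757560 and 2757581 were called lower, with log2 differences of -1.99, -2.24 and -2.23, where 1.38% of all probe sets were. The differences were thus uneven along the gene, and the mean of the median in siNELF-A (5.63) lay below that of each other group.

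**Figure D1:**
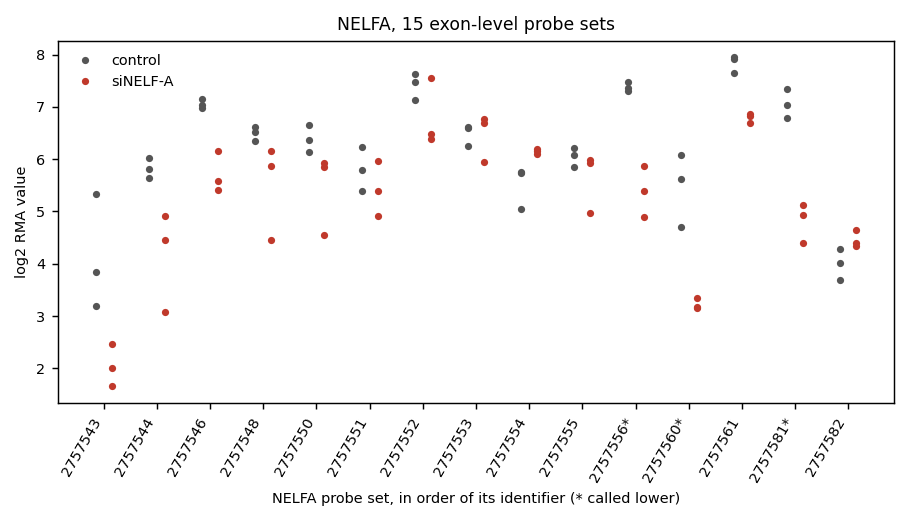
The 15 exon-level probe sets of NELFA on the horizontal axis, with the log2 RMA value of each control array (grey) and each siNELF-A array (red) as a point. In 9 probe sets all red points lie below all grey points, in 2 they lie above, and the 3 marked with an asterisk were called lower.

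The neighbour NSD2, a histone H3 lysine methyltransferase measured as the median of 56 exon-level probe sets, fell from a mean of 6.64 ± 0.219 to 5.45 ± 0.163 (SD, n = 3 arrays each; adjusted p = 0.00408). Of all 16909 genes with such medians, 9.69% were called lower. NSD2 was not called in a fit of all 15 arrays (adjusted p = 0.0918). Its siNELF-C and siNELF-E arrays stood at 5.29 to 5.83, close to those of siNELF-A.

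The other subunits and DSIF gave a mixed picture. NELFCD, the gene of NELF-C, read 9.33, 9.19 and 9.23 in control and 8.87, 8.66 and 8.23 in siNELF-A, a difference of -0.66 that missed the threshold (adjusted p = 0.0575). It was called lower in the 12-array fit without siNELF-B (adjusted p = 0.0146), with dim clusters left out (0.0237), with an intensity trend (0.0475) and without siNELF-A replicate 1 (0.0408), and not in the fit of all 15 arrays (0.221). NELFE, as a median of 15 probe sets, read 7.29, 7.22 and 7.27 in control and 7.98, 8.20 and 7.42 in siNELF-A, a difference of 0.61 that also missed it (adjusted p = 0.106). SUPT4H1, which encodes the small DSIF subunit SPT4, rose from 8.69, 8.65 and 8.73 to 9.36, 9.47 and 9.35 (0.70, SE 0.102, adjusted p = 0.00965), but was not called in the fit of all 15 arrays (adjusted p = 0.226). SUPT5H, the large DSIF subunit, differed by -0.35 (adjusted p = 0.135). NELFB was not analysed here.

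Far more genes fell than rose. Of the 22011 clusters, 1729 (7.86%) were called lower and 249 (1.13%) higher in siNELF-A, so 12.6% of the calls were increases. All counts of list members against control given below stand beside these shares. Among the calls, 646 fell and 59 rose 2-fold or more, and 66 fell and 1 rose 4-fold or more. The split depended on scaling: increases made up 35.5% of calls after quantile normalization (1113 lower, 613 higher), 29.2% after median centring (1208 and 498) and 48.7% after centring on each array's 75th percentile (960 and 913). The median change over all clusters moved from -0.03 as deposited to 0.05, 0.10 and 0.19 under these scalings. The fit of all 15 arrays, whose spread includes that of the variable siNELF-B arrays, called 622 lower and 109 higher clusters, of which 614 and 104 were among the calls above. Without control replicate 3 the counts were 630 and 97, and 578 lower and 66 higher clusters were called whichever single array was left out.

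**Figure D2:**
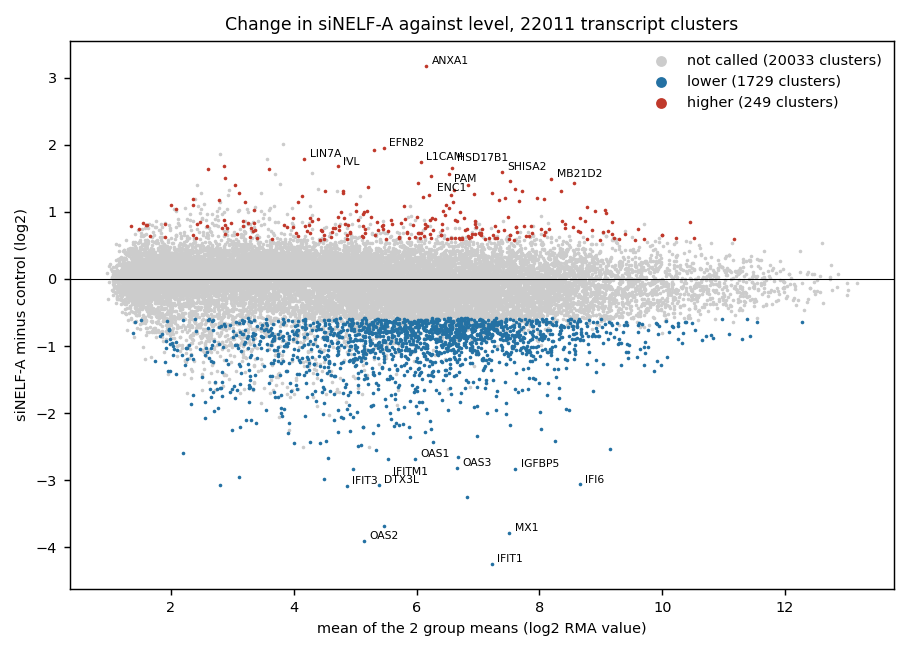
Change in siNELF-A against control (vertical axis, log2) plotted against the mean level of the 2 groups (horizontal axis, log2 RMA) for 22011 transcript clusters. Blue points are the 1729 clusters called lower, red points the 249 called higher; the 10 genes that fell most and the 10 that rose most among bright genes with 1 symbol whose groups did not overlap and that also passed both alternative fits are named.

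The genes that fell most were antiviral. Type I interferon signals through JAK kinases to transcription factors that bind interferon-response elements made of repeated GAAA half-sites in the promoters of interferon-stimulated genes. Of the 38 measured interferon-stimulated effector genes, 27 fell and 0 rose, against 7.86% and 1.13% of all clusters. Their median change was -1.54, beside -0.03 over all clusters, and by array it was -1.51, -1.54 and -1.74. The fit of all 15 arrays called 26 of them lower. Of the 11 members not called, 8 had both group means below 3.90, the 40th percentile of cluster means, a level called dim here.

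IFIT1, a protein that binds viral RNA lacking host cap methylation, fell furthest. Its control arrays read 9.25, 9.20 and 9.58 and its siNELF-A arrays 5.19, 4.91 and 5.21, which is 18.9-fold lower (log2 change -4.24, SE 0.152, adjusted p = 0.000108). All 3 siNELF-A arrays lay far below the lowest control, and 8 of its 9 probe sets were called lower. OAS2, one of the synthetases that make the second messenger of RNase L, went from 7.20, 6.98 and 7.11 to 3.23, 3.10 and 3.23 (-3.91, adjusted p = 4.7e-05). MX1, a GTPase that traps viral nucleocapsids, went from 9.32, 9.37 and 9.53 to 5.64, 5.59 and 5.62 (-3.79, adjusted p = 4.7e-05). The 26 probe sets of OAS2 and the 21 of MX1 each had all siNELF-A arrays below all controls.

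The remaining families moved the same way. All 4 measured IFIT genes were called lower, with a median change of -2.57. The 4 genes of the OAS and RNase L group were too, with a median of -2.75, OAS3 and OAS1 falling by 2.82 and 2.69 on the log2 scale. IFIT3 read 6.37, 6.47 and 6.38 in control and 3.08, 3.66 and 3.23 in siNELF-A. DTX3L, a ubiquitin ligase that acts with PARP9, read 6.67, 6.86 and 7.21 in control and 3.83, 4.07 and 3.65 in siNELF-A (-3.07, adjusted p = 0.000658). IFI6, a mitochondrial and endoplasmic reticulum protein, fell from 9.96, 10.25 and 10.35 to 7.01, 7.31 and 7.05. IFITM1, which blocks fusion of virus with the cell membrane, fell by 2.68. ISG15, the ubiquitin-like modifier, did not pass the test (-0.43, adjusted p = 0.267), and neither did CMPK2 (0.23, adjusted p = 0.339). Among 4 effector genes with no cluster of their own, the exon-level medians of 2 were called lower: IFITM2 by -1.27 and the dim IFITM3.

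**Figure D3:**
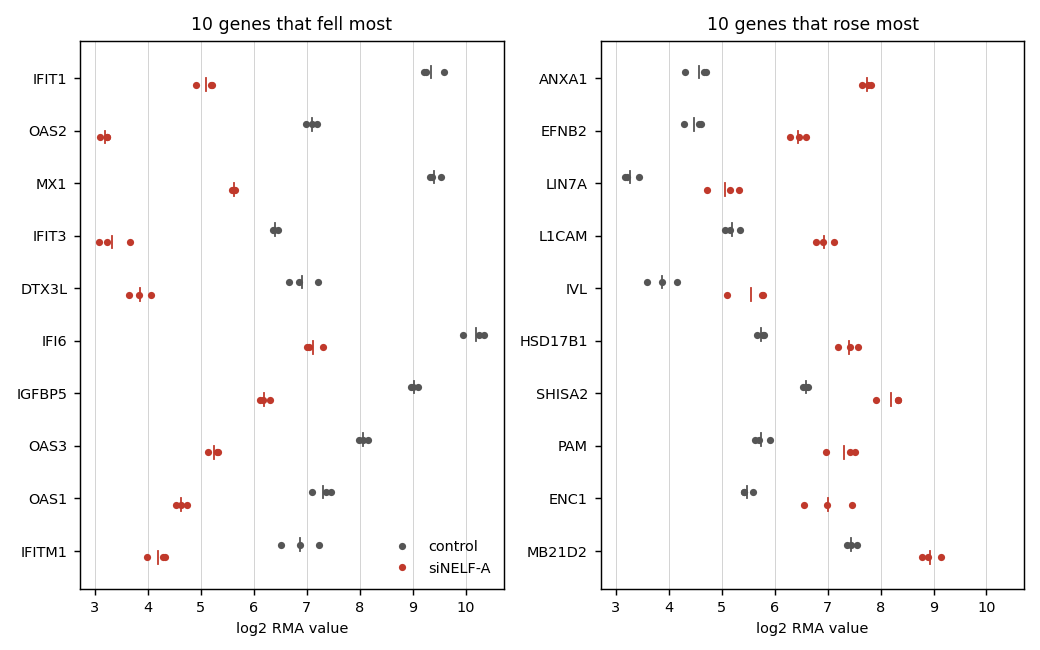
Log2 RMA value of each array for the 10 genes that fell most (left) and the 10 that rose most (right) under the same limits, with control in grey and siNELF-A in red; bars mark group means. The 2 groups of points do not overlap for any of the 20 genes, which was a condition for naming them. Of the 10 on the left, 9 are interferon-stimulated, the exception being IGFBP5.

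The promoters of 4 of these genes are shown because they are the lowered interferon-stimulated genes of largest change in which a pair of such half-sites was found. Each line gives RefSeq sequence of GRCh38.p14, plus strand, from 170 bases before the annotated start through 30 bases from it on. Capitals mark matches to GAAANNGAAA on either strand.
IFIT1, chr10:89392453-89392652: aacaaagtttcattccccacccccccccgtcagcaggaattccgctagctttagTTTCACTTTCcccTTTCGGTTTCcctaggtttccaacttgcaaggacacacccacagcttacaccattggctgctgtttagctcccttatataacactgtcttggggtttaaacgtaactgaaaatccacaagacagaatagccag
MX1, chr21:41420388-41420587: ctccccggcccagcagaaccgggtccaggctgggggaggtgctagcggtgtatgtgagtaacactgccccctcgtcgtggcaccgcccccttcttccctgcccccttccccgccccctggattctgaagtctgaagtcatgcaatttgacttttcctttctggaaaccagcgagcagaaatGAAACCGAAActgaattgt
IFIT3, chr10:89327827-89328026: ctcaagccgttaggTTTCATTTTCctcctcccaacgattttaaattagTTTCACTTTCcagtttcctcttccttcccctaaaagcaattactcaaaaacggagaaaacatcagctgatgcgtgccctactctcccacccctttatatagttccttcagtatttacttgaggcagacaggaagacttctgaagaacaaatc
DTX3L, chr3:122564168-122564367: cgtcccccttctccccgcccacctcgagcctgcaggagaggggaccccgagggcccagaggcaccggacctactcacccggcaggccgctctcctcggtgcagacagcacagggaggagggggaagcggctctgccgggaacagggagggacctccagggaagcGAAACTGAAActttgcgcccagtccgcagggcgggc
IFIT1 and IFIT3 each hold 2 matches on the reverse strand upstream of the start, at 116 and 103 bases before it in IFIT1 and 156 and 122 in IFIT3. MX1 holds 1 match, which begins 11 bases after the start, and DTX3L 1 that begins 6 bases before it.

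Over the full window of 250 bases before to 50 after the start, 996 of 27305 promoters in the table (3.65%) held the motif. It was held by 18 of the 24 lowered effector genes with a promoter in the table (75%) and by 5 of the 8 effector genes not called (62.5%). Among all genes lower in siNELF-A it was held by 45 of 1026 (4.39%), and among genes higher by 6 of 146 (4.11%). Outside the interferon, RNA sensing and antigen lists, 21 of 988 lowered genes held it (2.13%). A match is a run of letters, and its use in these cells was not tested.

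Sensors of foreign RNA fell beside the effectors. Of 11 measured RNA sensing genes 7 were called lower and 0 higher, with a median of -0.99. EIF2AK2, the kinase PKR that stops translation on binding double-stranded RNA, fell from 6.68, 7.08 and 7.21 to 4.81, 4.93 and 4.58 (-2.21, adjusted p = 0.00146). RIGI, the cytosolic sensor RIG-I, fell from 4.98, 4.71 and 5.19 to 3.89, 3.65 and 3.54, and its relative DHX58 from 6.17, 5.74 and 5.95 to 4.57, 4.68 and 5.09, DHX58 losing its call without control replicate 3. IFIH1, the sensor MDA5, was called lower too, but both its group means (3.88 and 2.61) were dim. The adaptor MAVS differed by -0.30 and the kinase IKBKE by -0.23, and neither passed the test.

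In the signalling chain upstream 4 of 14 measured members fell and 1 rose, against 7.86% and 1.13% of all clusters. The median was -0.12. IRF9, the DNA-binding subunit of the interferon-activated complex, fell from 7.41, 7.05 and 7.38 to 5.21, 5.21 and 5.06 (-2.12, adjusted p = 0.000858). JAK1, the kinase bound to the interferon receptor, fell from 10.09, 10.23 and 10.32 to 9.33, 9.28 and 8.99. IRF2 fell by 0.81, a call lost without control replicate 3, and JAK2 was called lower at a dim level. IFNGR1, the ligand-binding chain of the interferon gamma receptor, rose by 0.59 (adjusted p = 0.025) but was not called in the fit of all 15 arrays (adjusted p = 0.198) or without any 1 of 5 arrays, siNELF-A replicate 3 being the exception. The type I receptor chain IFNAR1 differed by 0.00 (SE 0.15). Of 3 members measured from exon-level medians, 2 were called lower: STAT2 (-0.84, adjusted p = 0.0339), which was not called in the 15-array fit (adjusted p = 0.249), and USP18 (-1.91, adjusted p = 0.000583), the protease that removes ISG15.

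Part of the antigen presentation list fell. Among its 7 genes of peptide loading and trimming 4 were called lower, among 4 of the immunoproteasome 1, and among 3 class I molecules 0. The list gave 5 lower and 0 higher of 14, with a median of -0.57, and all 5 were called without any single array and in the 15-array fit. ERAP1, which trims peptides in the endoplasmic reticulum, fell from 6.29, 6.45 and 6.61 to 4.28, 4.18 and 3.98 (-2.30, adjusted p = 0.000682). ERAP2 fell by 1.83, the immunoproteasome subunit PSMB8 by 1.83 and the peptide-loading factor TAPBP by 1.47. The exon-level median of PSMB9 fell by 1.70 (adjusted p = 0.000766). B2M, the class I light chain, differed by -0.20 (adjusted p = 0.608). The bright chaperone CALR differed by -0.05 (adjusted p = 0.799), and the exon-level medians of TAPBPL and PDIA3 differed by -0.14 and -0.27 without passing.

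**Figure D4:**
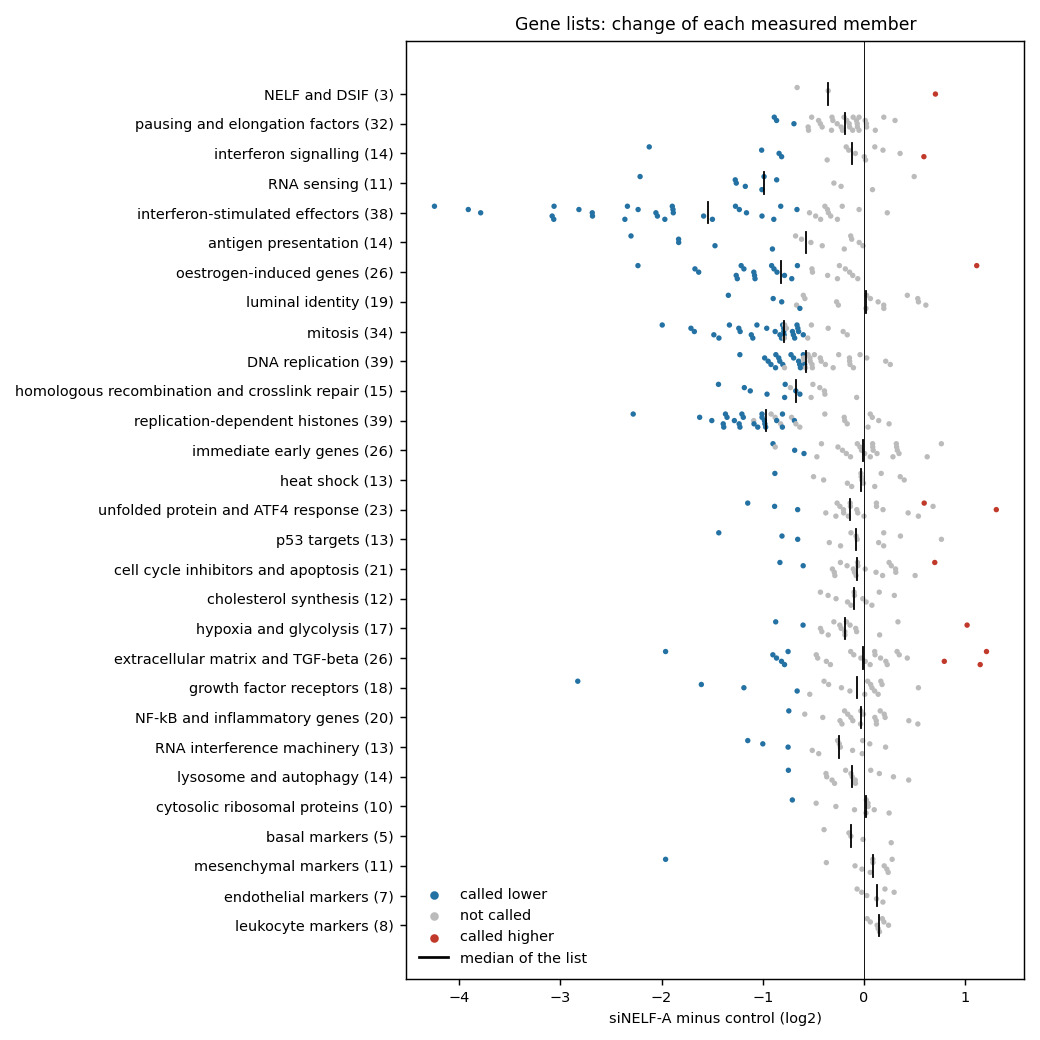
Change in siNELF-A against control (log2) of every measured member of the 29 gene lists, 1 point a gene, with the number of members in brackets and the list median as a black bar. Blue points were called lower and red points higher; the bars of the effector, histone, RNA sensing, oestrogen and mitosis lists lie furthest below 0.

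Many oestrogen receptor genes and targets were lower as well. The labels name no hormone treatment, so a response to hormone was not measured. Oestrogen receptor binds its ligand and then DNA, and in luminal cells it drives growth genes and the progesterone receptor. Of 26 measured oestrogen receptor genes and targets, 16 fell and 1 rose, with a median of -0.82. The receptor ESR1 read 7.72, 7.63 and 7.72 in control and 6.62, 6.50 and 6.31 in siNELF-A (-1.21, SE 0.121, adjusted p = 0.00346). The progesterone receptor PGR read 9.99, 9.87 and 10.00 in control and 8.87, 8.92 and 8.82 in siNELF-A (-1.08, adjusted p = 0.00319). For both receptors, chosen for this text after their values were seen, no array of one group reached the other. The same held for all 1729 clusters called lower and all 249 called higher. The transcription factor MYB fell most of the targets, from 7.26, 7.23 and 7.57 to 5.09, 5.29 and 4.98 (-2.23). The secreted disulphide isomerase AGR2 fell by 1.67, the RAS-related growth inhibitor RERG by 1.63 and the IGF-binding protein IGFBP4 by 1.26. KRT13, a keratin, rose by 1.11 (adjusted p = 0.00596), from 4.52, 4.33 and 4.52 to 5.80, 5.45 and 5.45. The bright targets XBP1 (-0.19, adjusted p = 0.291) and CA12 (-0.06, adjusted p = 0.765) did not pass. The count of lower members was 13 in the 15-array fit and 10 without control replicate 3, so it moved by over 1.5 times with that array.

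Among 9 transcription factors of luminal identity 4 fell, and among 10 epithelial structure genes 0 were called in either direction. The difference between those groups of genes was not tested. GRHL2, which maintains epithelial junctions, went from 8.88, 8.88 and 8.97 to 7.84, 7.60 and 7.27 (-1.34, adjusted p = 0.00516). FOXA1, the pioneer factor that opens chromatin for oestrogen receptor, went from 9.11, 8.93 and 9.05 to 8.22, 8.20 and 7.97 (-0.90, adjusted p = 0.0075). SPDEF fell by 0.81 and GATA3 by 0.63, GATA3 losing its call in the 15-array fit (adjusted p = 0.193) and after quantile normalization. KRT8 differed by 0.54 (adjusted p = 0.0452), short of 1.5-fold, and was called higher after quantile normalization. GATA3 was also lost without 5 of the 6 arrays, among them all 3 controls. The median of all 19 luminal genes was 0.02, and every one of the 19 except ELF3 (3.45 in control and 3.98 in siNELF-A) had both group means above the dim level.

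Receptors for growth factors and prolactin formed a smaller group, 4 lower and 0 higher of 18. IGFBP5, a secreted binding protein for insulin-like growth factors, fell from 8.98, 9.0 and 9.09 to 6.12, 6.31 and 6.17 (-2.83, SE 0.109, adjusted p = 0.000144). ERBB4, a receptor tyrosine kinase for neuregulins, fell by 1.61 and the insulin-like growth factor receptor IGF1R by 1.19. The prolactin receptor PRLR fell by 0.66 and lost its call in the 15-array fit (adjusted p = 0.0851) and without siNELF-A replicate 3 or control replicate 2 or 3. ERBB2 differed by 0.04 (adjusted p = 0.886).

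Cell division genes were lower in siNELF-A, with less certainty about how many. Of 34 measured mitosis genes 26 were called lower and 0 higher, with a median of -0.79. The array medians were -0.78, -0.78 and -0.85, below the 3 controls at -0.06, -0.06 and 0.12. The count was 5 in the 15-array fit and 11 without control replicate 3. MKI67, a coat protein of mitotic chromosomes, went from 7.41, 7.29 and 7.55 to 5.79, 5.68 and 5.65 (-1.71, adjusted p = 0.000932). FOXM1, the transcription factor of the division programme, went from 8.27, 8.02 and 8.17 to 6.71, 6.47 and 6.26 (-1.68, adjusted p = 0.0023). Both were also called in the 15-array fit. HMMR, KIF14, KIF11 and TOP2A fell by 1.99, 1.48, 1.43 and 1.33 but were not called there. RNA of the whole culture was measured, so fewer dividing cells and less of these RNAs per cell cannot be told apart.

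DNA replication genes gave 16 lower and 0 higher of 39, with a median of -0.58. The count was 4 in the 15-array fit, 9 after quantile normalization and 3 without control replicate 3. TK1, the salvage kinase for thymidine, fell from 10.03, 9.89 and 9.93 to 9.08, 9.13 and 8.69 (-0.98, adjusted p = 0.0106) and was called in the 15-array fit as well. The thymidylate synthase gene TYMS fell by 0.95 and the S-phase cyclin CCNA2 by 0.87. The bright RRM2, a subunit of ribonucleotide reductase, differed by -0.31 and the helicase subunit MCM4 by -0.14, and neither passed. Homologous recombination and crosslink repair gave 8 lower and 0 higher of 15, with BRIP1, NBN and FANCI lower by 1.44, 1.18 and 1.12, but 0 in the 15-array fit and 4 without control replicate 3. BRCA1 differed by -0.51 (adjusted p = 0.0555).

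Replication-dependent histones, whose messages are made in S phase, gave 23 lower and 0 higher of 39, with a median of -0.97. H4C3 fell from 9.46, 9.60 and 9.77 to 8.04, 8.38 and 8.24 (-1.39, adjusted p = 0.00346), and H3C1 fell by 2.28 (adjusted p = 0.0119), siNELF-A replicate 3 reading 4.26 against 5.27 and 5.45 in the others. H2AC6 differed by -0.20. The genes are near-identical copies, and probes of one may read another, so single members are uncertain. The count was 10 in the 15-array fit and 8 without control replicate 3.

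Genes that rose were fewer, and in the deposited values no list held more than 3 of them. After quantile normalization the matrix and TGF-beta list and the unfolded protein and ATF4 list each held 4. ANXA1, a calcium-dependent membrane-binding protein that restrains inflammation, was the highest change, from 4.68, 4.31 and 4.71 to 7.82, 7.66 and 7.76 (9.06-fold; 3.18, SE 0.141, adjusted p = 0.000272). Its 3 siNELF-A arrays lay far above all controls, and 14 of its 14 probe sets did too. EFNB2, a membrane ligand of Eph receptors, rose from 4.61, 4.29 and 4.56 to 6.60, 6.46 and 6.28 (1.96). L1CAM, a neural adhesion molecule, rose from 5.35, 5.07 and 5.17 to 7.13, 6.92 and 6.78 (1.74). LIN7A, a polarity scaffold, rose by 1.79, IVL, a precursor of the cornified envelope, by 1.68, and HSD17B1, which makes oestradiol from oestrone, by 1.66. SHISA2, PAM, ENC1 and MB21D2 rose by 1.60, 1.56, 1.53 and 1.49. Each of these 10 was called without any single array; calls in the 15-array fit and after quantile normalization were part of the rule that named them.

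Matrix and TGF-beta genes moved both ways, 6 lower and 3 higher of 26, with a median of -0.01. FN1, fibronectin, fell from 5.54, 5.66 and 5.89 to 3.84, 3.77 and 3.60 (-1.96, adjusted p = 0.000932). TIMP1, TGFBR1 and LAMB1 fell by 0.90, 0.87 and 0.82, none of them called in the 15-array fit, where the list gave 1 lower member, and the list gave 2 without control replicate 3. BAMBI, a decoy receptor that blocks TGF-beta signals, rose from 7.34, 7.32 and 7.41 to 8.73, 8.56 and 8.40 (1.21, adjusted p = 0.00346), and the ligand TGFB2 rose by 1.15 (adjusted p = 0.00329). CCN1, a secreted matrix protein, rose by 0.79, a call lost without any 1 of 5 arrays, siNELF-A replicate 3 being the exception. THBS1 and ITGB1 were bright and differed by 0.06 and 0.11.

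Of 32 pausing and elongation genes 3 fell and 0 rose, against 7.86% and 1.13% of all clusters. Their median was -0.18, and 0 were called in the 15-array fit. The 3 were INTS7 of the Integrator complex and AFF1 and MLLT3 of the super elongation complex, at -0.89, -0.86 and -0.69, and all 3 lost their call without control replicate 3. The 6 measured genes of P-TEFb and 7SK gave 0 calls, and SSRP1 and SUPT16H, the subunits of the histone chaperone FACT, differed by -0.43 and -0.11 without passing. Of 13 genes of the RNA interference machinery, 3 fell: TNRC6C, TNRC6B and AGO3, by 1.15, 1.0 and 0.75, AGO3 losing its call without any 1 of the 3 controls. The effector AGO2 differed by -0.01.

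Counts in the stress and signalling lists stand beside 7.86% lower and 1.13% higher of all clusters. Immediate early genes gave 3 lower and 0 higher of 26. All 3 (DUSP4, DUSP6 and SPRED1, at -0.90, -0.69 and -0.59) are feedback inhibitors of ERK signalling, and MYC differed by -0.07. The unfolded protein and ATF4 list gave 3 lower and 2 higher of 23, with PSAT1 at -1.15, CHAC1 at 1.31 and TRIB3 at 0.59. Of 13 p53 targets 3 fell, among them the death receptor FAS, from 7.17, 7.17 and 7.22 to 5.74, 5.77 and 5.74 (-1.44, adjusted p = 0.000932), whereas CDKN1A differed by 0.14. Cell cycle inhibitors and apoptosis genes gave 2 lower (RB1 and RBL1, at -0.83 and -0.60) and 1 higher of 21, the inhibitor CDKN2B (0.70, adjusted p = 0.016). Hypoxia and glycolysis genes gave 2 lower (PFKFB3 at -0.87 and ALDOC at -0.60) and 1 higher of 17, EGLN3, a prolyl hydroxylase of hypoxia-inducible factor (1.02, adjusted p = 0.00534). Heat shock, NF-kB, lysosome and ribosomal protein lists gave 1 lower member each (HSPA4L, NFKB1, TPP1 and RPL6) and 0 higher, and cholesterol synthesis gave 0 of 12. Of the genes named in this group of lists, FAS and EGLN3 were called whichever single array was left out, and each of the other calls was lost without control replicate 3 or another array.

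Markers of other cell types were not called, apart from FN1. Of 5 basal, 11 mesenchymal, 7 endothelial and 8 leukocyte markers, FN1 was the 1 called, and it was lower. Above the dim level stood 4 basal, 4 mesenchymal, 1 endothelial and 3 leukocyte markers. The brightest were CDH3 (7.38 in control and 7.23 in siNELF-A) and ITGB4 (6.63 and 6.50) of the basal list, COL1A1 (5.85 and 5.48) and TWIST1 (5.19 and 5.10) beside FN1 of the mesenchymal list, ENG (5.96 and 5.89) of the endothelial list and NKG7 (4.78 and 5.02) of the leukocyte list. PTPRC, CD3E, LYZ, PECAM1 and VIM had control means of 1.43, 2.0, 1.39, 1.96 and 2.50 and siNELF-A means of 1.49, 2.15, 1.58, 1.94 and 2.48, all dim. The log2 sum over the leukocyte list was 6.27 to 6.53 in control and 6.55 to 6.57 in siNELF-A.

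The NELF-C and NELF-E knockdowns showed which of these differences NELF-A knockdown had beyond theirs. SiNELF-A was tested directly against siNELF-C and against siNELF-E in a fit of the 12 arrays that leaves out siNELF-B, whose arrays correlate with each other at as little as 0.917. Against siNELF-C, 633 clusters (2.88%) were lower in siNELF-A and 1556 (7.07%) higher, and against siNELF-E 1313 (5.97%) and 816 (3.71%). The fit of all 15 arrays called 631 and 891 clusters in all, in place of 2189 and 2129. The comparisons of each knockdown with control share the control arrays, so no overlap or correlation between them is given, and levels of the other groups stand beside those of siNELF-A as description.

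Of the 38 interferon-stimulated effectors, 2 were lower and 1 higher in siNELF-A than in siNELF-C, beside 2.88% and 7.07% of all clusters. Against siNELF-E 7 were lower and 1 higher, beside 5.97% and 3.71% of all clusters. The median differences over the list were -0.05 and -0.04. MX1 averaged 5.62 in siNELF-A, 5.64 under siNELF-C and 5.47 under siNELF-E, with control at 9.41. Without a group free of siRNA, a fall in the knockdowns and a rise with the control duplex cannot be told apart. IFIT1 was lower in the other knockdowns than in siNELF-A, at 4.32 and 4.02 against 5.10 (differences of 0.78 and 1.09, adjusted p = 0.0034 and 0.000382). DTX3L was lower in siNELF-A than in both (-0.87 and -1.46, adjusted p = 0.00809 and 0.000318).

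Cell division differed. Of 34 mitosis genes, 16 were higher in siNELF-A than in siNELF-C and 30 higher than in siNELF-E, with 0 lower in either case, and median differences of 0.57 and 1.24. DNA replication gave 12 and 31 higher of 39 with 0 lower. Most members of both lists thus lay higher in siNELF-A than in siNELF-E. Of 39 histones, 2 were lower and 0 higher than in siNELF-C, and 5 lower and 11 higher than in siNELF-E. Cholesterol synthesis genes, none called against control, were higher than in siNELF-C in 6 of 12. The counts in this paragraph stand beside 2.88% lower and 7.07% higher of all clusters against siNELF-C, and 5.97% and 3.71% against siNELF-E.

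A set of 192 clusters was called lower in siNELF-A than in control, siNELF-C and siNELF-E alike, and 51 were called higher than in all 3; these comparisons share the siNELF-A arrays. Of these, 157 and 40 were bright and carried 1 symbol. STAT3, the transcription factor of interleukin-6 family cytokines, led the first set. Its arrays read 9.47, 9.44 and 9.45 in control, 7.17, 7.16 and 6.80 in siNELF-A, 9.94, 9.82 and 9.84 in siNELF-C, and 9.95, 9.76 and 9.77 in siNELF-E. The siNELF-A arrays stood alone, 5.31-fold below control (-2.41, SE 0.133, adjusted p = 0.000498), -2.82 against siNELF-C and -2.78 against siNELF-E (adjusted p = 2.04e-07 and 2.39e-07). All 26 of its probe sets had the siNELF-A arrays below the controls, 25 of them called, and its siNELF-B arrays read 9.30, 9.49 and 8.58.

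TNFSF10, the death ligand TRAIL, averaged 6.75 in control, 4.84 in siNELF-A, 8.19 in siNELF-C and 7.39 in siNELF-E. The direct difference between siNELF-A and siNELF-C was -3.35, with the control mean between them. GPC6, a cell surface proteoglycan, averaged 7.48, 5.05, 7.58 and 7.24 in the same order, and IGFBP5 9.02, 6.20, 8.28 and 9.20. DCAF6, a substrate receptor of a ubiquitin ligase, averaged 8.0, 5.34, 7.13 and 8.04, with 25 of 26 probe sets called lower against control. The serpin SERPINI1 averaged 5.85, 3.58, 5.90 and 5.67, and the lipase LIPH 6.84, 5.17, 7.94 and 7.35. In the siNELF-B arrays LIPH read 5.935, 6.98 and 5.24, overlapping siNELF-A at 5.31, 5.54 and 4.65. SERPINI1 read 4.902, 6.398 and 3.815 there. In the 15-array fit neither gene's difference from siNELF-B passed (adjusted p = 0.171 for LIPH and 0.104 for SERPINI1). CYFIP2, of the actin-regulating WAVE complex, was less firm against control (-0.71, adjusted p = 0.0392): it lost its call in the 15-array fit (adjusted p = 0.0908), after quantile normalization and without 5 of the 6 arrays, among them all 3 controls.

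Of genes higher in siNELF-A than in all 3, GJA1, the gap junction protein connexin 43, stood furthest from both other knockdowns. It averaged 6.59 in control, 7.36 in siNELF-A, 4.63 in siNELF-C and 4.82 in siNELF-E, so the 2 other knockdowns lay below control (differences of 2.74 and 2.54 from them, adjusted p = 2.04e-07 and 2.88e-07). ANXA1 averaged 4.57, 7.75, 5.76 and 4.38 in that order and differed from siNELF-C by 1.98 (adjusted p = 5.53e-05). SHISA2 averaged 6.59, 8.19, 6.66 and 6.36, EFNB2 4.49, 6.45, 4.64 and 5.25, and LIN7A 3.27, 5.07, 3.62 and 3.07. KITLG, the ligand of the receptor KIT, averaged 8.59, 9.57, 8.10 and 8.12, and its difference from siNELF-B did not pass (15-array fit, adjusted p = 0.0644). It was not called against control in the 15-array fit (adjusted p = 0.0773). The protease MMP16 was not called there either (adjusted p = 0.275), and the fatty acid transporter SLC27A2 rose by 0.90 against control; the call was lost for MMP16 without siNELF-A replicate 2 or control replicate 2 or 3, and for SLC27A2 without control replicate 1 or 2.

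**Figure D5:**
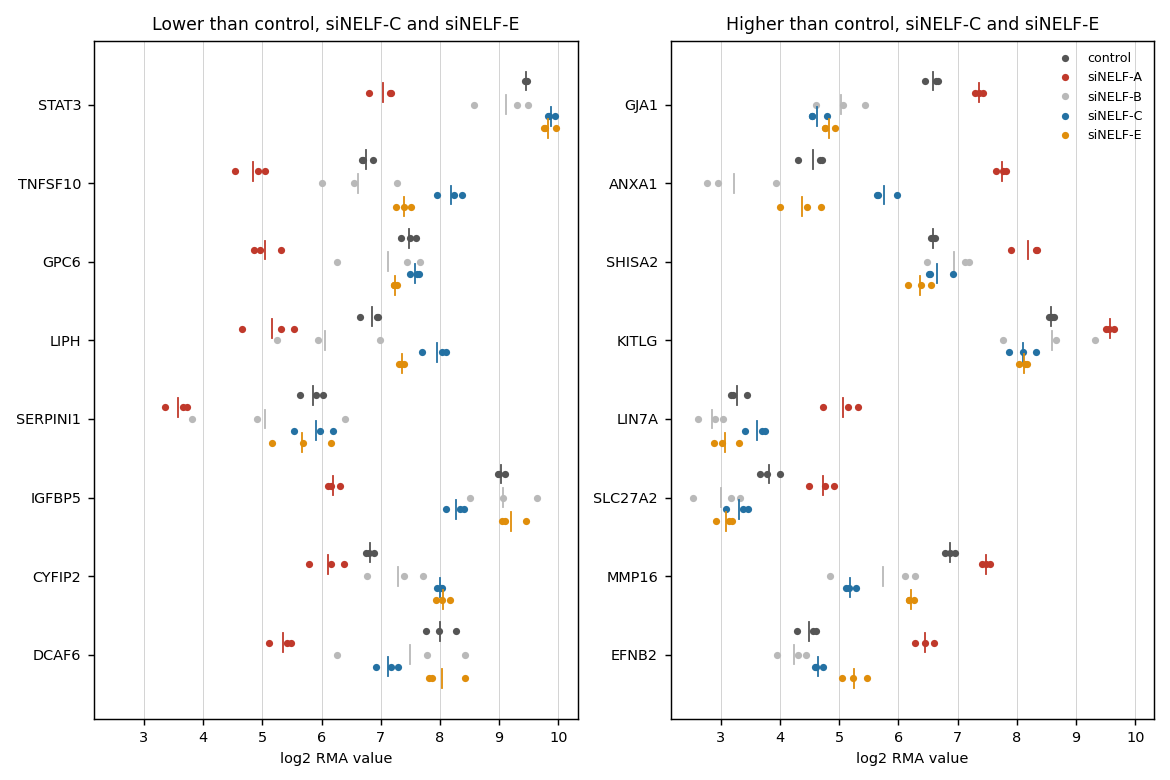
Log2 RMA value of every array in the 5 groups for 8 genes called lower (left) and 8 called higher (right) in siNELF-A than in control, siNELF-C and siNELF-E; bars mark group means. Red siNELF-A points stand apart from the grey, blue and orange points of control, siNELF-C and siNELF-E, while the pale siNELF-B points scatter widely.

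Exon usage asks whether 1 probe set moved apart from the rest of its gene. It was tested over 154323 probe sets of 9847 genes, and 1512 (0.980%) were called lower and 1324 (0.858%) higher, in 2038 genes. The fit of all 15 arrays called 336 in both directions together, and 885 were called without control replicate 3. The 8 probe sets named here were called in the 15-array fit too. In COG4, a subunit of a Golgi tethering complex, probe set 3697145 went from 6.18, 5.92 and 6.07 to 2.36, 2.78 and 1.85, a fall of 9.45-fold relative to the gene (-3.24), while the gene-level change was -0.49. In the spliceosome-associated CTNNBL1, probe set 3884336 fell by 3.04 relative to a gene that differed by -0.03. This probe set read 4.91, 4.99 and 3.635 in control and a low 1.68, 1.44 and 0.97 in siNELF-A. In PTPN3, a tyrosine phosphatase, probe set 3219948 fell by 3.08 and in PCNX1 probe set 3542732 by 2.20, relative to genes at 0.27 and -0.29. The PTPN3 probe set spread widely, at 3.99, 5.89 and 4.82 in control and 2.95, 2.36 and 0.88 in siNELF-A.

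Other probe sets rose relative to their gene. OAS3 probe set 3432469 read 6.31, 6.52 and 6.07 in control and 7.39, 7.08 and 6.80 in siNELF-A, against the fall of the gene by 2.82, which is a relative change of 3.49. In NF1, which switches off RAS, probe set 3717060 read 1.31, 0.83 and 2.95 in control and 4.50, 3.87 and 4.36 in siNELF-A (relative change 2.92). In PRLR, probe set 2853104 read 4.59, 4.08 and 4.08 in control and 5.75, 6.09 and 5.26 in siNELF-A, while the gene fell by 0.66. In KPNA2, an importin that carries proteins into the nucleus, probe set 4041140 fell from 6.49, 6.09 and 7.12 to 5.29, 4.34 and 4.08, a change of -1.72 (log2) relative to the gene's other probe sets. The gene-level cluster of KPNA2 has the same group means as this probe set (6.56 and 4.57), so its call, at -1.99, is no separate measurement.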

How the data were processed

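Per the labels, the authors deposited log2 RMA values from ArrayAssist (Stratagene) computed over core exons (build hg18); the software version is not given in the sources used here. Values were used as they stand; no 2 columns were identical. Symbols came from the platform annotation, updated through RefSeq: 14432 clusters carried 1 symbol, 2408 several and 5171 were not listed, and only those with 1 are named.

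Tests used R 4.3.3 with limma 3.58.1 (lmFit, eBayes, diffSplice) and data.table (version 1.17.8). The fits used the 6 arrays of the 2 groups for siNELF-A against control, 12 arrays without siNELF-B for siNELF-A against siNELF-C and siNELF-E. NELFA and other genes with no cluster of 1 symbol were measured as medians over their exon-level probe sets, which was not the planned test. Exon usage left out the dimmest 25% of probe sets and 40% of genes, and genes with fewer than 3 probe sets. The 6-array gene-level fit was tested on simulated data. It recovered 85% of the 4-fold and 56% of the 2-fold changes put in, with 12 false calls. The simulation changed 200 clusters and drew each value independently, with the spread within groups of these arrays. No shift of a whole array was put in, so false calls from such shifts are not covered.

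Named genes were those of NELF and DSIF, the 10 lowest and 10 highest calls that are bright and also called in the 15-array fit and after quantile normalization, up to 4 calls per list and direction (6 for lists of over 30) with the 2 brightest members not called, and up to 8 genes per direction called the same way against control, siNELF-C and siNELF-E. Up to 8 called probe sets were named for exon usage, by adjusted p. The members and the 29 lists were chosen with earlier results of these data known. Array number limits the precision.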

Additional observations from a re-analysis of the deposited data

Results flagged for a closer look

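In the direct test between knockdowns, 16 genes named by rule differed from both siNELF-C and siNELF-E. The smaller of the differences from siNELF-C and siNELF-E is given, with all p-values from limma's 12-array fit over all clusters. In siNELF-A, STAT3 was lower than in siNELF-E by a log2 difference of -2.78, TNFSF10 by -2.55, GPC6 by -2.20, LIPH by -2.18 and SERPINI1 by -2.10. Against siNELF-C, IGFBP5 was lower by -2.08, CYFIP2 by -1.89 and DCAF6 by -1.78. GJA1 was higher than in siNELF-E by 2.54, KITLG by 1.45, MMP16 by 1.28 and EFNB2 by 1.20. ANXA1 was higher than in siNELF-C by 1.98, SHISA2 by 1.53, LIN7A by 1.45 and SLC27A2 by 1.42.

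For a second set, called in siNELF-A against control and against another knockdown, the arrays of that knockdown lay beyond the controls on the other side. The comparisons with control share its arrays, so the values are a description. The 6 genes with the largest direct differences were PIP (-3.50 against siNELF-E), TNFSF10 (-3.35 against siNELF-C), KRT23 (-2.95 against siNELF-C), NAALADL2 (-2.86 against siNELF-E), STAT3 (-2.82 against siNELF-C) and KCNMA1 (-2.78 against siNELF-E). PIP, a secreted protein of apocrine glands, was -1.94 from control in siNELF-A and 1.55 in siNELF-E (adjusted p of the difference 6.86e-07). Of the 171 genes named by rule, 65 were called against siNELF-C, 81 against siNELF-E and 97 against either. Over all clusters, 2.88% were lower and 7.07% higher than in siNELF-C, and 5.97% and 3.71% than in siNELF-E. Part of the named genes were chosen for such calls, so the count is a description of the choice. With 3 arrays a group, no search for single outlying arrays was made.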

How the results depend on the processing

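Clusters lower than control numbered 1729, and 622 with all 15 arrays in the fit, 1113 after quantile normalization, 960 after 75th percentile centring, 828 with a replicate block and 630 to 1635 without 1 array. Clusters higher numbered 249, and 109, 613, 913 and 99 under the same settings, 498 after median centring, and 93 to 255 without 1 array. With all 15 arrays the calls against siNELF-C went from 2189 to 631, against siNELF-E from 2129 to 891 and of exon usage from 2836 to 336; exon usage gave 885 to 3902 without 1 array. The replicate numbers did not pair the arrays: deviations of same-numbered arrays correlated at 0.00, -0.03 and -0.09. Of 171 named genes, 0 changed sign with a call under any of the 14 alternatives. Of the 113 called, 71 were also called with 15 arrays, 100 after quantile normalization and 72 without each single array; the 32 differences from siNELF-C and siNELF-E of the 16 genes chosen for differing from both were called in every alternative run, and those of other named genes were not run. The cause of these shifts was not tested, except that the 15-array fit had a median SE of 0.217 in place of 0.149. Repeats were technical, 3 a group, and the arrays' values carry no detection flags.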
